A study of Mus musculus with 8 samples.

Results

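Spi1, Irf5, Irf8, Cebpb, Maf, Mitf, Tfec, Tfeb and Batf3 are 9 transcription factors that act in myeloid cells or on lysosomal genes. They were taken by name, as a list of such factors, from the 21859 genes counted in each aorta, and the rule uses their names, not their values. The factors and the gene lists used below were nevertheless chosen with earlier results of these data known. Shares of them that differ between genotypes are therefore descriptions. All 9 were present and passed the filter on low counts, among 15077 genes that did so. RNA was sequenced from whole aortas of male mice, 40 weeks old and fed a normal (chow) diet. The 4 ApoE-/- mice lack apolipoprotein E in the whole body, a lipid carrier that clears lipoprotein remnants from blood, and the 4 WT mice were C57BL/6 animals of the same age and sex. The knockout strain is on the same C57BL/6 background, and its deletion is present in every cell, leukocytes included. Each mouse gave 1 library of its total aorta, so that all cell types of the vessel are mixed, and replicates were not pooled. The comparison asks how gene expression differs in the aorta of atherosclerosis-prone mice, and here it is read for these factors.

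Spi1 encodes PU.1, an ETS factor that commits progenitors to the myeloid and B lineages and stays on in macrophages, where it holds enhancers open. IRF8 pairs with PU.1 and BATF3 on composite sites and is needed for monocytes and type 1 dendritic cells, while IRF5 relays Toll-like receptor signals to inflammatory cytokine genes and C/EBPβ drives acute-phase and cytokine genes. MAF acts in the programme of resident macrophages, including complement C1q, and the MiT/TFE factors TFEB, TFE3, MITF and TFEC bind E-boxes, with TFEB in particular controlling lysosome and autophagy genes. Foam cells, the lipid-filled macrophages of atherosclerotic plaques, depend on lysosomes to break down the lipoproteins that they take up.

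Read pairs counted on genes numbered 23240995 to 23940156 in the ApoE-/- libraries and 18375898 to 21664598 in the WT libraries. Pairs given to no gene were 64.4% to 67.7% of all pairs in ApoE-/- libraries and 69.8% to 72.1% in WT libraries. Apoe, the deleted gene, was at 32.3, 14.7, 17.6 and 36.3 CPM in ApoE-/- replicates 1 to 4 and at 809, 667, 536 and 857 CPM in WT replicates 1 to 4, so that each library had the level of its label. CPM (counts per M read pairs) scales each gene's count to the library's pairs on genes, after TMM normalisation between libraries. ApoE-/- replicate 1 stood apart from the other libraries. Its summed CPM over 12 contractile smooth muscle genes was 5643, against 12450 to 23170 in the other 7 libraries, and its difference from the other ApoE-/- libraries, as a chi-square per gene, was 247 to 347, against 45.2 to 189 among those. Smooth muscle and endothelial markers, the defining genes of the aortic wall, were detected in every library. In whole tissue, fewer or more cells of a type cannot be told apart from less or more RNA per cell.

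Spi1, Irf5 and Irf8 separated the genotypes, and the other 6 factors did not. All 4 ApoE-/- aortas exceeded all 4 WT aortas for these 3 of 9 factors, while 5.41% of the 15077 genes did so in this direction. In edgeR's quasi-likelihood F test with Benjamini-Hochberg adjustment over all 15077 genes, 0 of the 9 factors had an adjusted p under 0.05, where 0.464% of all genes did. At an unadjusted p under 0.05, edgeR passed 4 of them, Spi1, Irf5, Irf8 and Tfec, against 11.4% of all genes. DESeq2 called Spi1, Irf5 and Irf8, all higher in ApoE-/- mice, where 2.84% of 16803 genes were called higher. The median log2 fold change was 0.45 over the 9 factors and 0.05 over all genes tested, and 7 of the 9 were above 0, as were 8747 of the 15077.

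The level of Spi1 was 6.66, 7.92, 11 and 17.6 CPM in ApoE-/- replicates 1 to 4 and 4.36, 3.56, 2.94 and 3.45 CPM in WT replicates 1 to 4. The lowest ApoE-/- aorta was thus above the highest WT aorta, and the ApoE-/- mice differed among themselves by 2.64-fold, the WT mice by 1.49-fold. Means were 10.8 ± 4.88 CPM (SD, n = 4) and 3.58 ± 0.589 CPM (SD, n = 4), which gave a log2 fold change of 1.59 (SE 0.32) with an edgeR adjusted p of 0.0705 and a DESeq2 adjusted p of 0.000326. Spi1 (ENSMUSG00000002111.8) lies on chromosome 2, 91082390 to 91115756, plus strand, in GRCm38.

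For Irf5, the receptor-signalling IRF, the 4 ApoE-/- aortas had 12.9, 14.2, 19.1 and 27.6 CPM and the 4 WT aortas 9.13, 7.86, 6.65 and 9.0 CPM. These groups did not overlap either, and replicate 4 was again the highest ApoE-/- aorta and replicate 1 the lowest. The log2 fold change was 1.18 (SE 0.25), with an adjusted p of 0.0870 in edgeR and 0.00202 in DESeq2. Irf8, the monocyte and dendritic cell IRF, had 16.8, 13.6, 17.6 and 22.4 CPM in ApoE-/- mice and 9.13, 9.55, 7.04 and 7.18 CPM in WT mice. Its ApoE-/- values were the tightest of the 3, with 1.65-fold between highest and lowest, and here replicate 2, not replicate 1, was lowest. The log2 fold change of Irf8 was 1.10 (SE 0.19), with the smallest edgeR p of the 9 factors (adjusted p = 0.0526, and 3.38e-05 in DESeq2). Irf5 (ENSMUSG00000029771.12) lies on chromosome 6, 29526625 to 29541871, and Irf8 (ENSMUSG00000041515.10) on chromosome 8, 120736358 to 120756694, both on the plus strand. Exons of Irf5 share 411 bases with those of Tnpo3 on the opposite strand, and Irf8 lies within Gm20388 on the same strand, with 0 shared exonic bases. The libraries were stranded, and the deposited counts are named as stranded.

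**Figure D1:**
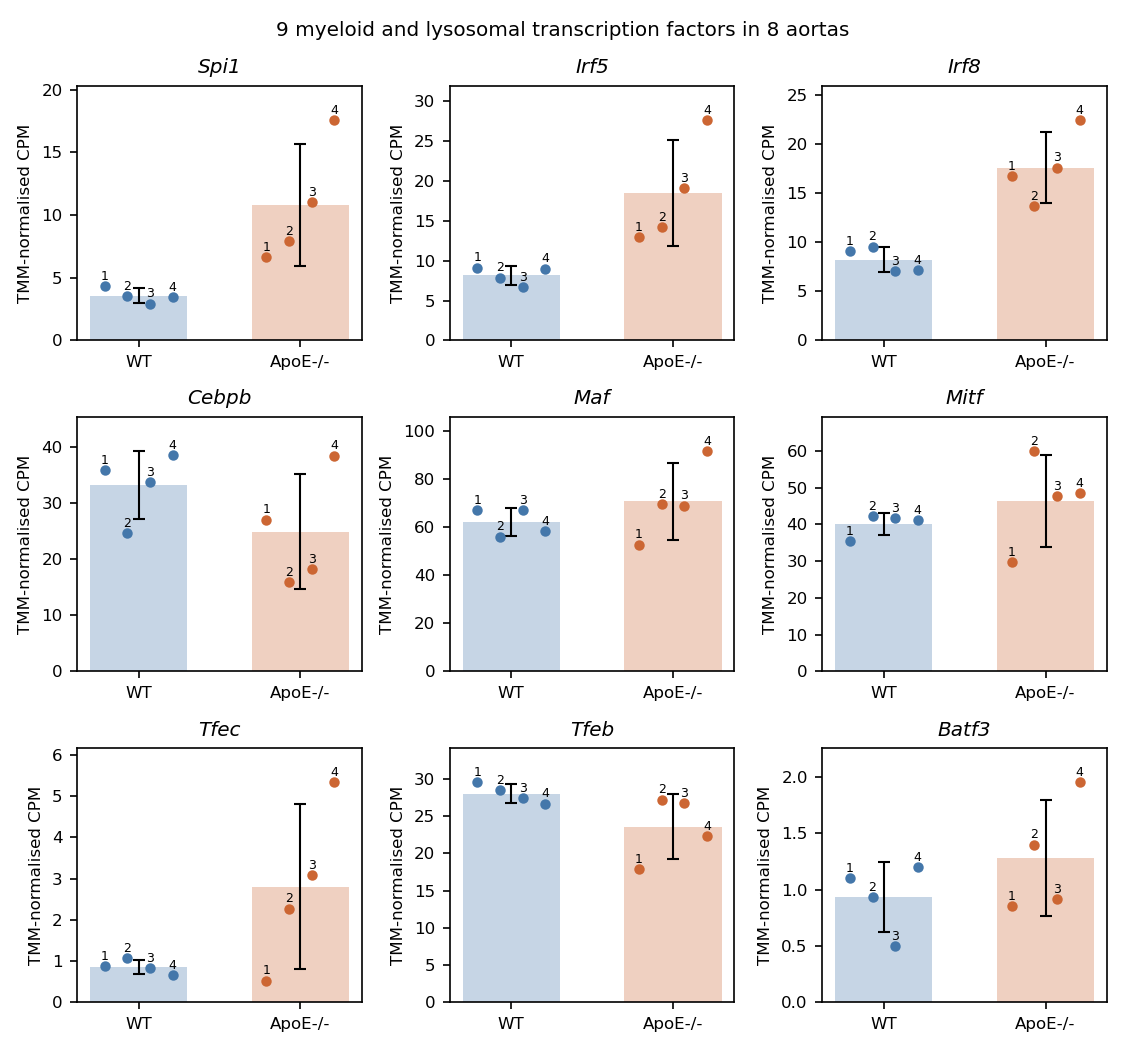
TMM-normalised CPM (y axes, from 0, a separate scale for each gene) of the 9 factors in 4 WT and 4 ApoE-/- aortas. Points are single mice with their replicate number, bars are means and error bars 1 SD. The groups part only for Spi1, Irf5 and Irf8, and ApoE-/- replicate 4 is the highest ApoE-/- mouse in 7 of 9 panels.

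Among the MiT/TFE factors, Tfec, a member restricted largely to macrophages and osteoclasts, was the most uneven of all 9 genes. It had 0.528, 2.27, 3.09 and 5.34 CPM in ApoE-/- replicates 1 to 4, from 13, 52, 71 and 123 counts, and 0.872, 1.08, 0.831 and 0.670 CPM in WT mice, from 14 to 23 counts. The replicate 1 aorta was below all WT aortas and the other 3 ApoE-/- aortas were above them, a 10.1-fold spread within the genotype. The log2 fold change of 1.69 (SE 0.59) was the largest of the 9 but had an adjusted p of 0.294 in edgeR and 0.103 in DESeq2.

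Mitf, which is also the melanocyte master factor, had 29.8, 59.9, 47.7 and 48.4 CPM in ApoE-/- mice and 35.5, 42.2, 41.7 and 41.1 CPM in WT mice. Replicate 1 lay below the WT range and the other 3 ApoE-/- aortas above it, so the groups overlapped (log2 fold change 0.21, SE 0.20, edgeR adjusted p = 0.795). Tfeb, the lysosomal regulator, had 17.9, 27.2, 26.8 and 22.3 CPM in ApoE-/- mice and 29.6, 28.5, 27.4 and 26.7 CPM in WT mice. Its 2 lowest values were ApoE-/- aortas, replicates 1 and 4, while the other 2 reached the WT range (log2 fold change −0.25, SE 0.14, edgeR adjusted p = 0.610). Tfe3, the family member outside the list, had 38.6 to 44.2 CPM against 35.9 to 42.1 CPM (log2 fold change 0.14, SE 0.09, edgeR adjusted p = 0.671).

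Cebpb, the cytokine and acute-phase factor, had 27.0, 15.9, 18.2 and 38.4 CPM in ApoE-/- mice and 35.9, 24.6, 33.7 and 38.5 CPM in WT mice. Replicates 2 and 3 lay below every WT aorta, and replicate 4 was level with the highest WT aorta, and neither tool called the gene (log2 fold change −0.41, SE 0.29, edgeR adjusted p = 0.713, DESeq2 adjusted p = 0.708). Cebpb is a gene of 1 exon whose sequence shares 312 bases with exons of Tmem189 on the opposite strand. Maf, the resident macrophage factor, had 52.6, 69.3, 68.8 and 91.4 CPM against 66.9, 56.0, 67.0 and 58.4 CPM. Replicates 2 and 3 were just above the highest WT aorta, replicate 4 was well above it and replicate 1 was below all 4 WT aortas (log2 fold change 0.18, SE 0.17, edgeR adjusted p = 0.789). Batf3, the type 1 dendritic cell factor, was near the limit of what these libraries could measure, with 0.852, 1.40, 0.915 and 1.95 CPM against 1.10, 0.936, 0.499 and 1.20 CPM. These values rested on 9 to 45 counts, and the groups overlapped (log2 fold change 0.45, SE 0.37, edgeR adjusted p = 0.771). Neither Cebpb, Maf, Mitf, Tfeb nor Batf3 was called by DESeq2.

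In GRCm38, Cebpb (ENSMUSG00000056501.3) lies on chromosome 2, 167688915 to 167690418, and Batf3 (ENSMUSG00000026630.9) on chromosome 1, 191097847 to 191108945, both on the plus strand. Mitf (ENSMUSG00000035158.15) lies on chromosome 6, 97807052 to 98021349, plus strand, and Tfec (ENSMUSG00000029553.10) on the same chromosome, 16833373 to 16898441, minus strand. Tfeb (ENSMUSG00000023990.18) lies on chromosome 17, 47737030 to 47792419, plus strand, and Maf (ENSMUSG00000055435.6) on chromosome 8, 115682942 to 115707794, minus strand, where its exons share 440 bases with the antisense gene Gm15655.

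The number of calls over all genes depended on the ApoE-/- aorta that stood apart, and edgeR called 70 genes with it and 593 without it. Without replicate 1, it called Spi1, Irf5, Irf8 and Tfec, all higher in ApoE-/- mice, 4 of 9 factors where 2.75% of 15147 genes were called higher. The log2 fold changes were then 1.76, 1.31, 1.12 and 2.04 in the same order, with edgeR adjusted p of 0.0165, 0.0238, 0.0238 and 0.0185. Leaving out any other single mouse, edgeR called 0 to 17 genes in all, so that its 0 calls among the 9 are no result about the factors. DESeq2, with each mouse left out in turn, called 431 to 1548 genes, 3 or 4 of the 9 among them. Spi1 ranged from 1.25 to 1.76 on the log2 scale over the 8 edgeR fits, Irf5 from 0.92 to 1.31, Irf8 from 0.96 to 1.20 and Tfec from 1.18 to 2.04.

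**Figure D2:**
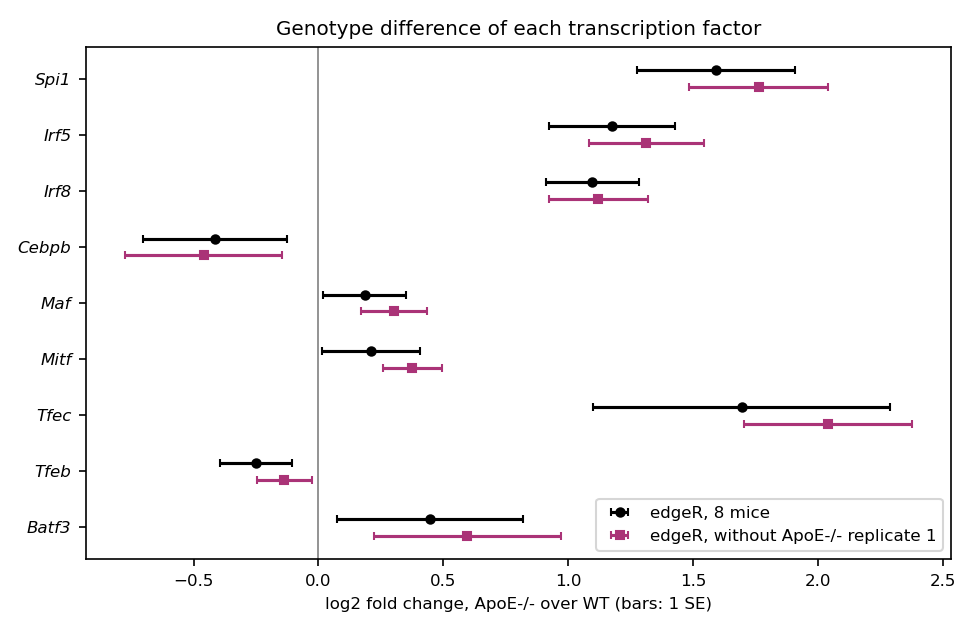
Log2 fold change of each factor, ApoE-/- over WT (x axis), from edgeR with 8 mice (black circles) and without ApoE-/- replicate 1 (purple squares), with bars of 1 SE. Spi1, Irf5, Irf8 and Tfec lie above 1 in both fits, and the other 5 lie between −0.46 and 0.60.

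To compare the factors with each other, CPM was divided by the length of each gene's exons in kilobases (RPKM). In WT aortas Cebpb had the highest RPKM of the 9, 22.1 ± 4.02 (SD, n = 4), followed by Maf at 7.53, Mitf at 6.47, Tfeb at 4.94, Irf5 at 2.81, Spi1 at 1.33, Irf8 at 1.17, Batf3 at 0.584 and Tfec at 0.154. Neighbours in this order did not overlap over the 4 WT mice except Maf with Mitf and Spi1 with Irf8. In ApoE-/- aortas the RPKM order was Cebpb at 16.6 ± 6.79 (SD, n = 4), Maf at 8.56, Mitf at 7.49, Irf5 at 6.35, Tfeb at 4.15, Spi1 at 4.01, Irf8 at 2.50, Batf3 at 0.801 and Tfec at 0.502. Irf5 was in the fifth place in WT and in the fourth in ApoE-/- aortas, and Tfeb the reverse. The ranges of each neighbouring pair overlapped among ApoE-/- mice except Irf8 with Batf3. Within every single ApoE-/- aorta, however, Cebpb was above Maf, Irf5 above Tfeb, Spi1 above Irf8 and Batf3 above Tfec. Maf with Mitf, Mitf with Irf5 and Tfeb with Spi1 changed order between aortas. Spi1 was thus below Cebpb, Maf, Mitf, Tfeb and Irf5 in RPKM without overlap in WT aortas. In ApoE-/- aortas its range over the mice reached those of Tfeb, Irf5, Mitf and Maf. Within each single ApoE-/- aorta, however, Spi1 was still below Irf5, Mitf and Maf.

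The relatives of the 9 factors were read from the same fit. In the IRF family, Irf5 and Irf8 had the 2 largest positive log2 fold changes of the 8 genes given here. Irf7, the interferon-inducible regulator of type I interferon genes, was next at 0.57 (SE 0.23, edgeR adjusted p = 0.377), and Irf9, the DNA-binding part of the interferon-stimulated complex, had 0.31 (SE 0.13, edgeR adjusted p = 0.412). Values for Irf1, Irf2 and Irf3 lay between −0.23 and −0.0037. Irf4, a factor of lymphocytes and adipocytes, went the other way, at 37.5 to 115 CPM in ApoE-/- mice and 108 to 212 CPM in WT mice (log2 fold change −1.25, SE 0.40). DESeq2 called its fall (adjusted p = 0.0358) and edgeR did not (adjusted p = 0.235).

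Spib, the lymphoid relative of Spi1, was at 0.569 to 1.05 CPM against 0.277 to 0.862 CPM (log2 fold change 0.44, SE 0.37, edgeR adjusted p = 0.775), and Spic, the factor of iron-recycling macrophages, was below the filter at 0.305 to 0.521 CPM against 0.111 to 0.734 CPM. In the C/EBP family, Cebpa, Cebpd, Cebpg, Cebpz and Ddit3 had log2 fold changes between −0.17 and 0.14, Cebpe was below the filter, and neither tool called a member. Mafa and Nrl, large Maf factors of pancreas and retina, were below the filter. Batf and Batf2, the other BATF factors, had log2 fold changes of 0.46 (SE 0.35) and 0.29 (SE 0.27), close to the 0.45 of Batf3, and neither tool called them.

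**Figure D3:**
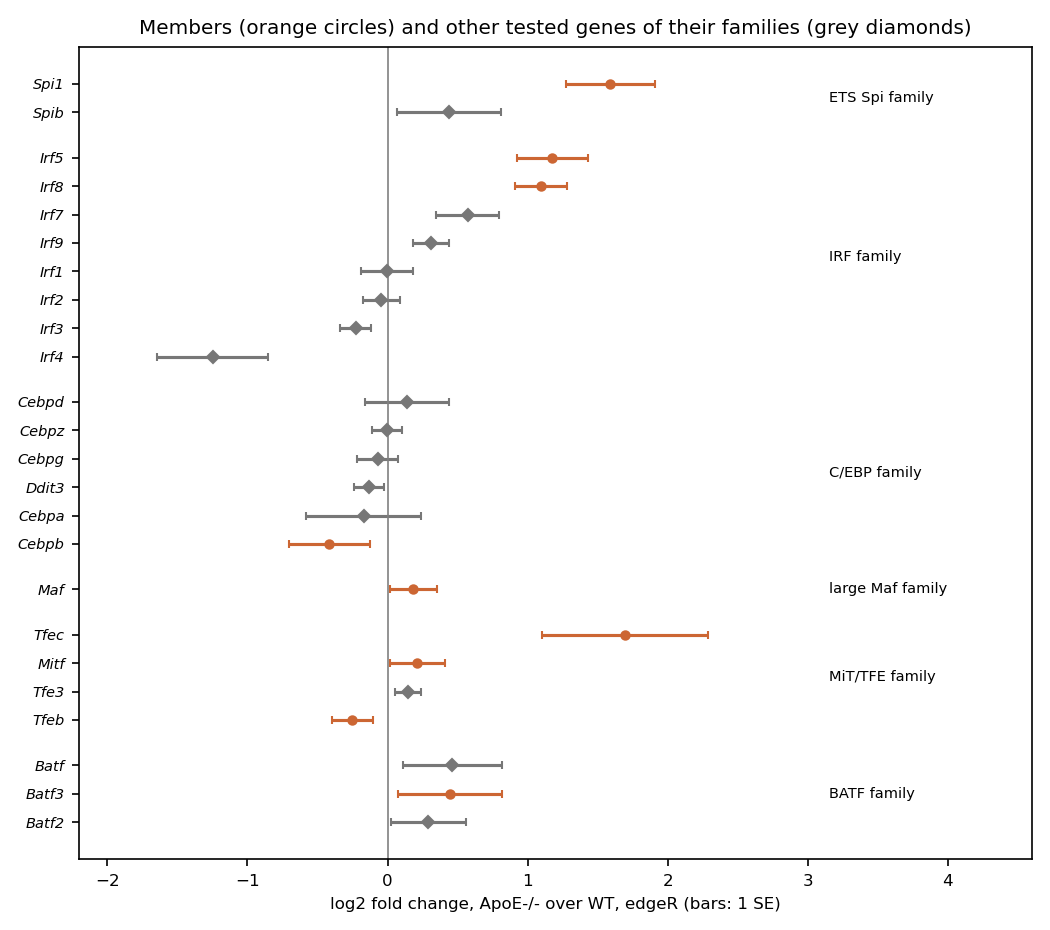
Log2 fold change, ApoE-/- over WT (x axis), of the 9 factors (orange circles) and of other tested genes of their families (grey diamonds), from edgeR with bars of 1 SE. Spi1, Irf5, Irf8 and Tfec lie above 1, Irf4 lies at −1.25, and the remaining genes lie between −0.41 and 0.57.

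Factors that share sites or partners were also compared within each aorta, as log2 ratios of 12 pairs, which do not depend on scaling. With 4 mice against 4, the exact permutation test (two-sided) cannot go below p = 0.0286, and after Benjamini-Hochberg adjustment over the 12 pairs 0 passed 0.05, where 2 had an unadjusted p under 0.05. With this floor a ratio could pass only if most of the 12 pairs reached it together. The 0 is therefore no result about a single ratio. The ratio of Spi1 to Cebpb averaged −1.21 (SD 0.557) over the ApoE-/- mice and −3.18 (SD 0.351) over the WT mice, a difference of 1.96 (SE 0.33) without overlap (exact p = 0.0286, adjusted 0.171). Mitf over Tfeb was 0.730 to 1.14 in ApoE-/- mice and 0.263 to 0.622 in WT mice, a difference of 0.44 (SE 0.13), also without overlap (exact p = 0.0286, adjusted 0.171). The ratio of Tfec to Tfeb differed by 1.52 (SE 0.59, exact p = 0.0571, adjusted 0.229), with ApoE-/- replicate 1 inside the WT range. Irf8 over Irf5 differed by −0.03 (SE 0.19) and Batf3 over Batf by 0.00 (SE 0.39), with adjusted exact p of 0.994 and 1. Spi1 over Irf8 had a difference of 0.40 (SE 0.22) and Irf8 over Batf3 of 0.67 (SE 0.33), both with an exact p of 0.143. Tfec over Mitf differed by 1.08 (SE 0.54), Tfec over Tfe3 by 1.10 (SE 0.68), Mitf over Tfe3 by 0.02 (SE 0.26) and Cebpb over Cebpd by −0.61 (SE 0.47), each with overlap between genotypes.

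Macrophage markers were higher in the same aortas as Spi1, Irf5 and Irf8. Of 17 macrophage markers, all 17 were tested and had a log2 fold change above 0, none was at 0 in all libraries, and edgeR called 2 (Fcgr1 and Cx3cr1) and DESeq2 14 higher in ApoE-/- mice. Without ApoE-/- replicate 1, edgeR called 13 of the 17 higher. Over all genes the shares were 0.464% in edgeR, 2.84% higher in DESeq2 and 2.75% higher in edgeR without that replicate. Their summed CPM was 617.9, 1193, 1442 and 2643 in ApoE-/- replicates 1 to 4 and 434.7 to 527.4 in WT mice. The order of the 4 ApoE-/- aortas by this sum was also their order for Spi1, Irf5 and Tfec. As a score, the mean log2 CPM of the 17 genes was 5.20 ± 0.66 (SD, n = 4) against 3.63 ± 0.19 (SD, n = 4), a difference of 1.58 (two-sided exact permutation test, p = 0.0286).

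Each factor was then measured per unit of macrophage marker RNA by adding this score to the offset of the edgeR fit. On that scale 82.4% of all genes were called lower in ApoE-/- mice, so a low value there is the background and is not a result about a factor. Spi1 had a log2 difference of −0.07 (SE 0.44, edgeR adjusted p = 0.899), Tfec −0.13 (edgeR adjusted p = 0.836), Irf8 −0.43 (edgeR adjusted p = 0.336) and Irf5 −0.44 (edgeR adjusted p = 0.313). Cebpb, Maf, Mitf and Tfeb, with −1.96, −1.40, −1.35 and −1.76, were among the genes called lower. Batf3 had −1.13 (edgeR adjusted p = 0.0544). The part of macrophage number in the genotype differences of Spi1, Irf5, Irf8 and Tfec was not tested.

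**Figure D4:**
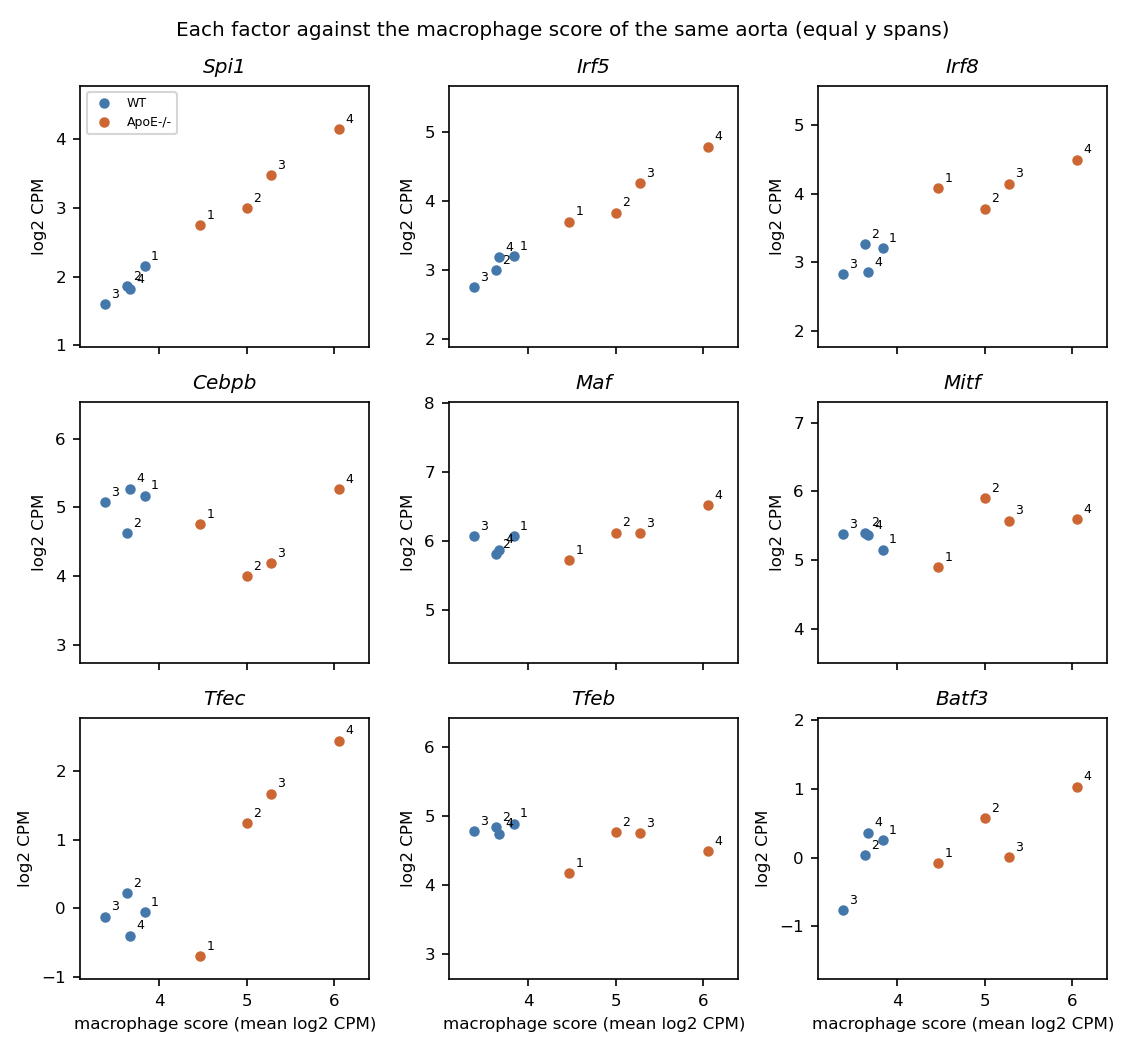
Log2 CPM of each factor (y axes, equal spans) against the mean log2 CPM of 17 macrophage markers in the same aorta (x axis), for 4 WT (blue) and 4 ApoE-/- (orange) mice with replicate numbers. Spi1, Irf5 and Irf8 lie higher in all ApoE-/- aortas than in all WT aortas, as the score does, ApoE-/- replicate 1 lies low for Tfec, and the points of Cebpb, Maf, Mitf and Tfeb overlap between genotypes on the y axis although all ApoE-/- scores are above all WT scores.

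Other cell types that use these factors were checked by their markers. Of 11 type 1 dendritic cell genes, edgeR and DESeq2 each called 1 higher, Wdfy4, which is needed for cross-presentation, at 31.4 to 48.4 CPM against 14.6 to 21.8 CPM (log2 fold change 1.17, SE 0.18, edgeR adjusted p = 0.0413). Clec9a, a receptor for dead cells on type 1 dendritic cells, had 8.93 to 10.8 CPM against 12.0 to 13.6 CPM and was called lower by DESeq2 (adjusted p = 0.0475) but not by edgeR (0.207). Zbtb46, shared with endothelium, had a log2 fold change of −0.42 without overlap (edgeR adjusted p = 0.180), and the chemokine receptor Xcr1 (named after its values were seen) was at 0.305 to 0.852 CPM against 0.335 to 0.554 CPM. The median over the list was 0.35, with a summed CPM of 164.4 to 269.2 against 161.0 to 191.5. Over all genes, edgeR called 0.464%, and DESeq2 called 2.84% higher and 1.45% lower. Without overlap, 1 of the 11 was higher (Wdfy4) and 2 were lower (Clec9a and Zbtb46), where 815 and 498 of all 15077 genes tested were.

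B cells, which also express Spi1 and Irf8, had low marker levels, 11.9 to 24.7 summed CPM against 9.27 to 12.0, with a median log2 fold change of 1.29 over 7 tested genes, of which edgeR called 0, 4 passed unadjusted and DESeq2 called Blk, a B cell kinase (adjusted p = 0.011). Cd79b, a signalling part of the B cell receptor, had a log2 fold change of 1.29 and was not called. For the lists of this paragraph, the shares over all genes were 0.464% called by edgeR and 11.4% passing unadjusted. DESeq2 called 2.84% higher and 1.45% lower, and edgeR without ApoE-/- replicate 1 called 1.16% lower. Plasmacytoid dendritic cell genes had a median of 0.28 over 7 genes and a summed CPM of 258.3 to 312.5 against 295.6 to 306.2, edgeR called 0 (3 unadjusted) and DESeq2 called Cox6a2, a mitochondrial subunit also used by striated muscle, lower (adjusted p = 0.0047), as edgeR did without ApoE-/- replicate 1, while Runx2 and Irf7 were not called. Of 13 neutrophil genes only 4 passed the filter, with Csf3r called higher by edgeR, S100a9 as well by DESeq2 among these 4, and Mmp9 at a log2 fold change of 0.57. The summed CPM of all 13 neutrophil genes was 14.5 to 37.2 against 7.72 to 14.

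T cell genes had a summed CPM of 10.2 to 16 against 6.43 to 9.64 and a median of 0.65 over 10 tested genes, with 0 called by edgeR or DESeq2 and 3 passing unadjusted (Cd4, Zap70 and Cd3g). For these, mast cell and melanocyte genes, edgeR's shares over all genes were 0.464% called, 11.4% passing unadjusted and 1.16% called lower without ApoE-/- replicate 1. DESeq2 called 2.84% of all genes higher and 1.45% lower. Mast cells and melanocytes depend on Mitf. The 9 tested mast cell genes had a median of 0.52 and 0 calls by either tool (1 unadjusted, Hdc, at a log2 fold change of −0.65, with Cpa3 and Cma1 at 0.78 and 0.82). Of 8 melanocyte genes only Mlana, Sox10 and Pmel passed the filter, 0 were called (0 unadjusted), although edgeR without ApoE-/- replicate 1 called Sox10 lower, and the pigment enzyme Tyr (named after its values were seen) did not exceed 0.434 CPM in any aorta.

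Markers of muscle, endothelium and fat were read last. The 10 cardiac muscle genes had a median log2 fold change of −2.84, with 6 called lower by DESeq2 and 0 by edgeR (9 unadjusted), led by Myl4, Tnnt2 and Nppa, and 14 endothelial genes a median of −0.38, with 8 called lower by DESeq2 and 0 by edgeR (9 unadjusted), led by Egfl7, Emcn and Robo4. DESeq2 called 1.45% of all genes lower. Without ApoE-/- replicate 1, edgeR called 8 of the cardiac genes and 4 of the endothelial genes (Egfl7, Emcn, Robo4 and Kdr) lower, where 1.16% of all genes were. The 12 adipocyte genes had a median of −0.45, with Lep, Ucp1 and Pck1 at −1.38, −1.11 and −0.76, and the 12 smooth muscle genes a median of −0.11, with Des, Actg2 and Tagln at −0.40, −0.30 and −0.26, and neither tool called a gene of these lists, nor did one pass unadjusted. Summed adipocyte CPM was 5089 to 17250 in ApoE-/- mice and 10030 to 18680 in WT mice. The part that these tissues had in the values of the 9 factors was not tested.

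Genes known to be driven by the factors were described next, as counts and medians beside the median of 0.05 and the 8747 of 15077 above 0 over all genes. Calls in these lists stand beside 0.464% of all genes called by edgeR (11.4% unadjusted), 2.84% called higher by DESeq2 and 2.75% called higher by edgeR without ApoE-/- replicate 1. All 32 genes of a PU.1 target list had a log2 fold change above 0, with a median of 1.56, and 6 were called higher by edgeR and 25 by DESeq2. The edgeR count rose to 25 without ApoE-/- replicate 1, and without any other single mouse edgeR called at most 17 genes of all. The 6 were Csf3r, the receptor for granulocyte colony-stimulating factor, the integrin Itgax (CD11c), the Fc receptor Fcgr1, the NADPH oxidase subunit Ncf4, the phosphatase Ptprc (CD45) and the pore-forming Mpeg1. Itgax was at 7.31 to 55.0 CPM in ApoE-/- mice and 1.16 to 1.83 CPM in WT mice, and Ptprc at 58.7 to 103 CPM against 21.3 to 28.3 CPM. Of these 32 genes, 10 also stand in the macrophage list, so the 2 lists are not separate measurements.

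Targets of IRF5 and IRF8 had a median of 0.72 over 17 tested genes of 22, with Il6 called higher by edgeR and 7 by DESeq2. Il6, the cytokine interleukin 6, was at 3.1 to 6.58 CPM against 0 to 0.281 CPM, and it was followed by the protease Ctss at 45.0 to 323 CPM against 9.14 to 19.6 CPM and the cytokine Il1b at 1.92 to 3.08 CPM against 0.479 to 1.24 CPM. The genes Il12a, Il12b, Il23a, Ccl4 and Ifnb1 of this list did not pass the filter. Without ApoE-/- replicate 1, edgeR called 4 IRF targets higher, Il6, Ctss and the NADPH oxidase subunit Cybb among them. Ctss and Cybb are also in the PU.1 target list, which shares 3 genes with this one. For Cebpb, whose own log2 fold change was −0.41, 15 of 16 tested C/EBPβ targets were above 0, with a median of 1.61, and 4 were called higher by edgeR and 8 by DESeq2, against 0.464% and 2.84% of all genes. The 4 were Il6, the acute-phase protein Saa3, at 4.42 to 22.9 CPM against 0.0918 to 0.335 CPM, the siderophore-binding Lcn2, at 15.1 to 52.5 CPM against 4.13 to 5.51 CPM, and Csf3r. Of this list 4 genes stand also among the IRF targets and 2 among the PU.1 targets.

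For Maf, 15 of 16 tested targets were above 0 with a median of 0.50, edgeR called 0 (7 unadjusted) and DESeq2 3. The 3 were C1qa, C1qb and C1qc, the chains of complement C1q, at 52.4 to 188, 47.5 to 195 and 51.5 to 195 CPM in ApoE-/- mice and 27.4 to 39.8, 25.3 to 35.0 and 27.0 to 37.5 CPM in WT mice. All 3 are also in the macrophage list. With ApoE-/- replicate 1 left out, edgeR called 4 Maf targets higher, these 3 and Gas6, a ligand of receptors for dead cells. Lysosomal and autophagy genes of the CLEAR network, the TFEB and TFE3 targets, had a log2 fold change above 0 in 42 of 45, with a median of 0.28 and a summed CPM of 6638 to 10750 in ApoE-/- mice, above the 5253 to 6543 of WT mice. edgeR called 0 of the 45 (14 unadjusted, against 11.4% of all genes) and DESeq2 5 of the 44 to which it gave an adjusted p (against 2.84%), the α-galactosidase Gla (0.88), the β-galactosidase Glb1 (0.55), the proteases Ctsb (0.99) and Ctsd (0.87) and the β-glucuronidase Gusb (0.97), of which Ctsd and Gusb are named after their values were seen. In edgeR without ApoE-/- replicate 1, 4 of the 45 were called, Gla, Gusb and Ctsa among them. Macrophage and osteoclast targets of MITF and TFEC had a median of 1.34 over 12 tested genes of 15, with Csf3r and Trem2 called higher by edgeR and 6 by DESeq2. Trem2, the lipid receptor of foam cells, was at 5.07 to 40.8 CPM against 1.03 to 1.61 CPM, and Atp6v0d2, a proton pump subunit of osteoclasts and macrophages, at 1.79 to 51.0 CPM against 0.431 to 1.55 CPM (edgeR adjusted p = 0.0753, DESeq2 3.63e-07). Without ApoE-/- replicate 1, edgeR called 5 of these targets, Atp6v0d2, Gpnmb and Cd68 besides the same 2. Cd68 and Csf3r stand also in the PU.1 list, Cd68 in the macrophage list and Csf3r in the C/EBPβ and neutrophil lists, so these calls are not separate measurements.

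**Figure D5:**
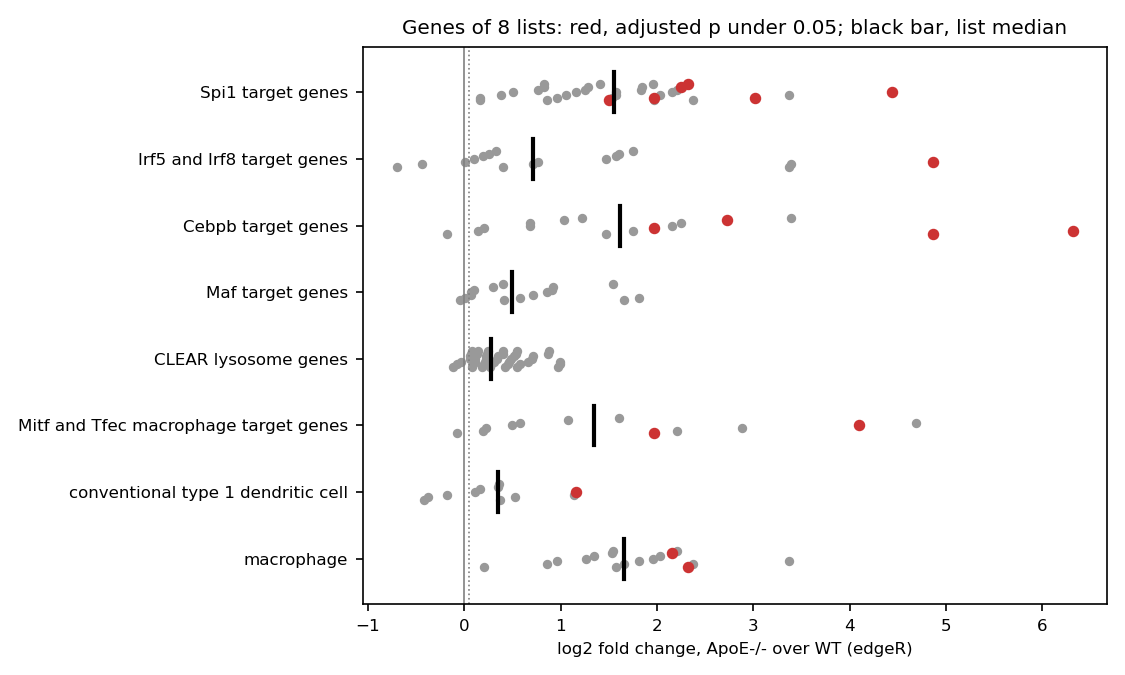
Log2 fold change, ApoE-/- over WT (x axis), of each tested gene of 8 lists, with calls by edgeR at an adjusted p under 0.05 in red, other genes in grey and the list's median as a black bar. The dotted line is the median of all tested genes. PU.1, C/EBPβ, MITF and TFEC target lists and the macrophage list have medians of 1.34 to 1.66, IRF targets a median of 0.72, and CLEAR genes, Maf targets and type 1 dendritic cell genes medians of 0.28 to 0.50.

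A wider list held 43 other myeloid transcription factors, 10 of them also in the families above, and the 39 tested had a median log2 fold change of 0.08. edgeR called Runx1, a core-binding factor of haematopoiesis, at 31.5 to 71.6 CPM against 9.81 to 13.9 CPM (log2 fold change 1.95, SE 0.27, adjusted p = 0.0381). Its relative Runx3 had 2.10 (SE 0.35, adjusted p = 0.0526) and the zinc finger factor Ikzf1 1.35 (SE 0.26, adjusted p = 0.0674), and DESeq2 called both. Without ApoE-/- replicate 1, edgeR called these 3 higher and Gata2, a factor of progenitors and mast cells, lower. DESeq2 called 4 of the 39 higher, against 2.84% of all genes, the other being the circadian and stress factor Bhlhe40 (0.73, named after its value was seen), and 1, Irf4, lower. The 3 leading genes and Spi1, Irf5 and Irf8 were higher in every ApoE-/- aorta than in every WT aorta, as were 5.41% of all genes. Of the 39, 6 were higher without overlap and 2 lower, where 815 and 498 of all 15077 genes tested were.

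The promoters of Irf5 and Irf8 are shown because these genes differed between genotypes together, and those of Mitf and Batf3 as examples of windows that held a searched motif. RefSeq windows of 300 bases in GRCm38.p6, from 250 bases before the start to 50 after it, were found for 7 of the 9 genes. Spi1 and Maf are named only. Motifs were searched on both strands for PU.1 (GAGGAAGT, in 3.2% of 32851 windows), IRF (GAAANNGAA, 8.56%), C/EBP (TTGCNNAA, 10.8%), the E-box of MiT/TFE factors (CACGTG, 7.15%), AP-1 (TGANTCA, 7.81%) and Maf (TGCTGAC, 4.67%). Capitals mark a match.
Irf5 (chr6:29526375-29526674, plus strand): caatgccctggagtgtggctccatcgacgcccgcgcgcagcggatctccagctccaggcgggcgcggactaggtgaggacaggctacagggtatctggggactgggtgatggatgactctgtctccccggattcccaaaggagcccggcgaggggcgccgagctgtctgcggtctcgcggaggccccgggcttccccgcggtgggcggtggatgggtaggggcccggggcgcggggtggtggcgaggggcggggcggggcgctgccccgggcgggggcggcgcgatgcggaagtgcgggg
Irf8 (chr8:120736108-120736407, plus strand): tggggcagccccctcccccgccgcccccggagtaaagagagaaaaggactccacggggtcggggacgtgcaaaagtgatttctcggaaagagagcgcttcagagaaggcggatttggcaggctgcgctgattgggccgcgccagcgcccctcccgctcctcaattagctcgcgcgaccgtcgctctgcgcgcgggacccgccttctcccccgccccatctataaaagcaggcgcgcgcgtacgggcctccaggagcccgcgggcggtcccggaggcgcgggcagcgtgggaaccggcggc
Mitf (chr6:97806808-97807107, plus strand): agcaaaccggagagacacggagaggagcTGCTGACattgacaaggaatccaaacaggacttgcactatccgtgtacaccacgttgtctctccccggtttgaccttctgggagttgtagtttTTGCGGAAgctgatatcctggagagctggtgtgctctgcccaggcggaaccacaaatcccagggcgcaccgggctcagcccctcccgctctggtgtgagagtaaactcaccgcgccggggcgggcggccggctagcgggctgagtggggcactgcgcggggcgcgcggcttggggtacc
Batf3 (chr1:191098164-191098463, plus strand): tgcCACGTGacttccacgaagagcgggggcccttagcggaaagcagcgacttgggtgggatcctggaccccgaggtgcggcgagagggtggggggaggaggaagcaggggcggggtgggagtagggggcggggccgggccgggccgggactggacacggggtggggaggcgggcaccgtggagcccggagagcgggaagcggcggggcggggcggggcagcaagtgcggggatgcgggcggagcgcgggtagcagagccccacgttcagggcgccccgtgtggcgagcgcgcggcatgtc

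None of the 6 motifs was in the Irf5, Irf8, Cebpb or Tfec windows. The Batf3 window held the E-box 247 bases before the RefSeq start, which lies inside the gene's GENCODE span given above, so that this E-box is also within that span. The Mitf window shown held a Maf motif at −222 and a C/EBP motif at −129, a further Mitf start held a C/EBP motif at 35 and a Maf motif at −236 on the reverse strand, and 1 of 3 Tfeb windows held a C/EBP motif at 19. A match is a description of the letters in the window and does not show binding. G and C made up 74.7% of the Irf5 window, 80.7% of the Cebpb window and 40.3% of the Tfec window, against a median of 52.7% over all windows.

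The genes whose profile over the 8 aortas was most like that of each factor were found by the root mean square difference of centred log2 CPM, among genes of at least 1 CPM. For Spi1 they were the NADPH oxidase subunit Cybb (0.0962), the haematopoietic actin regulator Nckap1l (0.101) and the myeloid receptor Cd300ld (0.115), against a root mean square of 0.842 for Spi1's own profile. Those nearest to Irf5 (own 0.646) were the matrix protease Mmp2 (0.106), Ikzf1 (0.114) and the thromboxane synthase Tbxas1 (0.121), and those nearest to Irf8 (own 0.586) were Wdfy4 (0.109), Rasal3 (0.120) and Lacc1 (0.120). Tfec, with an own value of 1.04, was followed at a distance by Gcnt4 (0.358), Hpse (0.380) and Glipr1 (0.383). Own values were smaller for Maf at 0.230, whose nearest genes were Rnf166 (0.0809), Tgfbr2 and Htra2, for Mitf at 0.283, with Desi2 (0.0761), Dnajc3 and Tbc1d12, and for Tfeb at 0.222, with Nemp1 (0.0392), Cbx7 and Pus7. Cebpb was nearest to Alas1 (0.128), Pde4d (0.145) and Endog (0.168), against 0.461 of its own, and Batf3 to Emilin2 (0.173), S1pr2 (0.223) and Dact2 (0.232), against 0.491.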

How the data were processed

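RNA of whole aortas from 4 ApoE-/- and 4 WT mice was sequenced by the authors from TruSeq stranded total RNA libraries after Ribo-Zero depletion of ribosomal RNA, as paired reads on a HiSeq. The authors deposited whole-number counts of read pairs per gene for each mouse, without normalization. The submitters' processing notes name TopHat2, HTSeq and the builds GRCm38 and mm10, and the tool versions and the annotation are not given in the sources used here. Pairs that were given to no gene made up 64.4% to 72.1% of all pairs and were left out of library sizes and tests. A gene of few counts, such as Tfec or Batf3, is measured less precisely than Maf.

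Genotype and replicate number came from the sample labels. Counts were analysed in R 4.3.3. Low genes were removed with filterByExpr of edgeR 4.0.16, TMM factors were computed, and glmQLFit (robust) with glmQLFTest compared genotypes, two-sided, with Benjamini-Hochberg adjustment over all genes tested and a threshold of 0.05. The SE of a log2 fold change is its size over the square root of F. Log2 CPM used a prior count of 2. The fit relative to macrophage markers added the mean log2 CPM of 17 markers to the offset. DESeq2 1.42.0, the tool of the study, limma-voom (limma 3.58.1), other normalizations and filters, a block for the replicate number and fits without single mice were alternatives. Scripts were tested on simulated data. Gene positions, exon lengths and overlaps came from GENCODE M21 (GRCm38), in which 21817 of the gene identifiers were found and 42 were not, and promoter windows from RefSeq (GRCm38.p6), searched with Python 3.11.15.

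Named genes were the 9 factors, their families, in each other list the genes called by edgeR and the 3 with the smallest p, for each factor the 3 genes of the most similar profile, and Apoe. Xcr1, Tyr, Ctsd, Gusb, Bhlhe40 and genes called by edgeR only without ApoE-/- replicate 1 were named after their values were seen. The factors and the lists (targets, cell type markers, other myeloid factors) were chosen with earlier results of these data known. The T cell receptor constant genes Trac, Trbc1 and Trbc2 were not found among the gene symbols. Some genes of the families, pairs and marker lists entered the fits, counts and medians and are not reported here. The qRT-PCR, protein and histology data of the study were not used here.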

Additional observations from a re-analysis of the deposited data

Results flagged for a closer look

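WT replicate 1 stood apart from the other WT aortas in 3 of the 44 groups of 4 values that were examined, and chance alone flags about 1 in 20 groups. Its Mitf level of 35.5 CPM was the lowest of the WT mice, with a gap to the next value of 0.836 of the group's range, above the Dixon limit for 4 samples. In the same aorta the log2 ratio of Mitf to Tfeb was 0.263 (gap 0.845 of the range) and that of Mitf to Tfe3 was −0.247 (gap 0.935 of the range). The 3 values share the Mitf count of that library and are not separate observations.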

How the results depend on the processing

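Signs of the log2 fold changes of all 9 factors were kept in each of the 25 settings run (24 for Batf3, which a minimum of 10 counts in every library removed). Against 70 genes and 0 factors in edgeR, DESeq2 called 721 genes and 3 factors, limma-voom 29 genes and 0 factors, and edgeR without ApoE-/- replicates 1 and 3 together 822 genes and 4 factors. Size factors of DESeq2 or upper-quartile factors in edgeR, both filters on low counts and no robust estimation gave 50 to 74 genes and 0 factors. Leaving out 1 mouse, edgeR called 0 to 593 genes (1269 to 2826 at an unadjusted p under 0.05) and 0 to 4 factors, with the 593 and the 4 without ApoE-/- replicate 1. DESeq2 without 1 mouse, chosen after seeing the data, called 1548, 705, 529 and 677 genes without ApoE-/- replicates 1 to 4 and 474, 483, 457 and 431 without WT replicates 1 to 4, with 3 factors in 7 of the 8 fits and 4 without ApoE-/- replicate 1. The cause of these shifts was not tested. Of the calls, 80% were higher in ApoE-/- mice in edgeR, 71.6% with upper-quartile factors (74 genes) and 66.2% in DESeq2. Without ApoE-/- replicates 1 and 3 together the majority turned, with 369 genes higher and 453 lower.

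Relative to macrophage markers, 4 to 6 factors were called lower across the settings, which is no result about them, since 82.4% of all genes were called lower on this scale with 8 mice. Spi1 changed sign, to 0.0904 with the list's median and 0.21 with Csf1r, Cd68 and Adgre1 as the score, and Tfec likewise, to 0.00537 and 0.12, to 0.11 without ApoE-/- replicates 1 and 3, and over −0.26 to 0.14 with 1 mouse left out. The difference of the Batf3 to Batf ratio, 0.00, became −0.00084 with a prior count of 0.5 and −0.0013 on raw counts. No ratio passed the adjusted threshold in any setting in which an adjusted p was computed, and the floor described for the pairs limited what could pass. None could pass with the replicate block, where 4 pairs allow no exact p under 0.05. With 1 mouse left out, the ratios were given as differences without an adjusted p.

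Mice of both genotypes carry the numbers 1 to 4, although no mouse is in both. The correlations of same-numbered deviations were 0.0593, −0.448, 0.316 and 0.162, within the −0.666 to 0.673 of aortas with different numbers. Same-numbered aortas were thus not set apart by these values, and a batch or order shared by number was not tested. With the replicate block edgeR called 2 genes and 0 factors. Depth limits Tfec and Batf3, with 9 counts in the shallowest case.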
